A study of Homo sapiens with 4 samples.

Results

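The transcription factors that drive or oppose the epithelial-mesenchymal transition were examined as messenger RNA in 4 libraries from human breast cancer cells. The set was chosen by name and holds 10 genes: ZEB1, ZEB2, SNAI1, SNAI2, TWIST1, TWIST2, FOXC2, PRRX1, OVOL1 and GRHL2. A row with that gene name was found for 5 of the 10 among the 20329 genes kept: ZEB1, ZEB2, SNAI1, SNAI2 and PRRX1. TWIST1, TWIST2, FOXC2, OVOL1 and GRHL2 were not analysed here. The cells were BM1 (1833) and LM2 (4175), derivatives of the triple-negative line MDA-MB-231 that the labels tie to metastasis to bone and to lung. Control cells of each line carried a non-specific shRNA, and knockdown cells carried an shRNA against the RNA-binding splicing factor hnRNPM. All shRNAs were introduced with lentiviral vectors and stably expressed, so the control cells are infected cells too. There was 1 library per line and treatment, which gives 4 groups of 1 library. How many clones or shRNA sequences stand behind a library is not given in the labels.

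In the epithelial-mesenchymal transition, cells that adhere to each other in a sheet lose their junctions and become motile. The zinc finger repressors of the ZEB family (ZEB1, ZEB2) and the SNAIL family (SNAI1, SNAI2, also called Snail and Slug) bind E-box sequences in promoters of epithelial genes such as CDH1 and silence them. PRRX1 is a homeodomain activator of mesenchymal genes, whereas OVOL1 and GRHL2 hold cells in the epithelial state. MicroRNAs of the miR-200 family and miR-205 repress ZEB1 and ZEB2 through their 3′ untranslated regions (UTRs), and the ZEB proteins repress the miR-200 genes in return.

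The sequences below are those of this loop. A microRNA recognises its target mainly by its seed, bases 2 to 8, shown in capitals. They fall into 3 seed groups, the first with 3 microRNAs, the second with 2 and the third with 1 (mature sequences from RefSeq, GRCh38.p14). MicroRNAs themselves were not measured in these libraries of polyadenylated RNA.

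hsa-miR-200b-3p: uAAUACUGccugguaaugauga
hsa-miR-200c-3p: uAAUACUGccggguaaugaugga
hsa-miR-429: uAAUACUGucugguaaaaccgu
hsa-miR-200a-3p: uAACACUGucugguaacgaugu
hsa-miR-141-3p: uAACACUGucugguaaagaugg
hsa-miR-205-5p: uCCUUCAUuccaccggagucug

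The longest annotated 3′ UTR of each gene (GENCODE 29) was searched for the letters that pair with bases 2 to 8. The ZEB1 UTR of 2549 bases held 6 matches to the seed shared by miR-200b, miR-200c and miR-429, 3 to the seed of miR-200a and miR-141, and 1 to that of miR-205. The ZEB2 UTR of 5370 bases held 5, 4 and 0. At least 1 match to the first seed was present in 26.3% of the 1185 UTRs within 10% of the ZEB1 length. Of the 542 UTRs near the ZEB2 length, 45.0% held at least 1. The shares with 6 or more and 5 or more were 0.0844% and 0.185%, which are ZEB1 and ZEB2 themselves and no other UTR. For the second seed at least 1 match was present in 30.0% and 51.5%. The shares with 3 or more and 4 or more were 0.506% and 1.48%, which include ZEB1 and ZEB2. The miR-205 seed had at least 1 match in 18.7% and 35.6%. SNAI2 held 1 match to the first seed, in a UTR of 1203 bases. SNAI1 and PRRX1 held none to any of the 3. Shown here are 2 matched stretches from each ZEB gene, taken at the lowest positions in the UTR for each of the miR-200 seeds, with the matched letters in capitals. A match of letters is a description of the UTR and not evidence of binding.

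ZEB1, miR-200b/c and miR-429 seed: atctggcattgttttatcttatCAGTATTa
ZEB1, miR-200a and miR-141 seed: aggacagcaaaatcatcagaatCAGTGTTt
ZEB2, miR-200b/c and miR-429 seed: aggtgcccgcactaccatacatCAGTATTt
ZEB2, miR-200a and miR-141 seed: tgcattatgcaaaaattttgtaCAGTGTTa

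**Figure D1:**
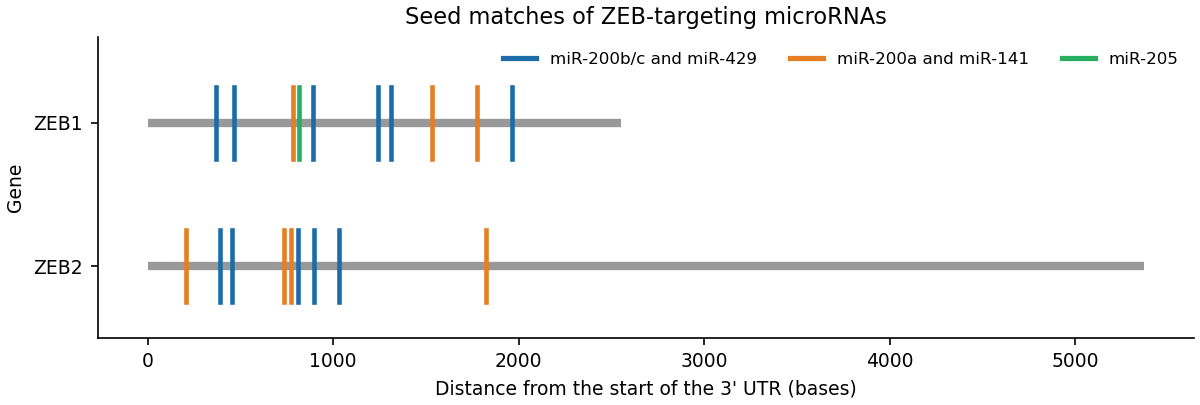
Seed matches in the longest annotated 3′ UTR of ZEB1 (2549 bases) and ZEB2 (5370 bases). The horizontal axis is the distance in bases from the start of the UTR, grey bars are the UTRs and coloured ticks are matches by seed group: 6, 3 and 1 in ZEB1, and 5, 4 and 0 in ZEB2, of which the last lies at base 1825.

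Levels are given in FPKM, fragments counted per unit of gene length and of library depth, which can be compared between genes. Differences are given on the log2(FPKM + 1) scale, where 1 is a doubling of FPKM + 1, and this scale understates the change of a low gene. The BM1 libraries held about 31300000 (control) and 22800000 (knockdown) fragments and the LM2 libraries about 41500000 and 27300000, estimated from the step size of the low values. HNRNPM, the targeted gene, measured 171 (control) and 28.4 FPKM (knockdown) in BM1 and 132 and 20.3 FPKM in LM2. Mitochondrial genes took 8.80% and 9.31% of the FPKM sum in the control libraries and 11.8% and 12.8% in the knockdown libraries. Their part in the results below was not tested. Vimentin (VIM, 1160 to 2354 FPKM) and CD44 (155 to 223 FPKM), which mark MDA-MB-231 cells, were high in every library, and ERBB2 was at 13.5 to 21.9 FPKM. ESR1, PGR, the leukocyte marker PTPRC and the endothelial marker PECAM1 were not analysed here. Tests are limma fits across the 13928 genes whose mean reached 1 FPKM, with terms for line and treatment, two-sided, with Benjamini-Hochberg adjustment and a threshold of 0.05. They have 1 residual degree of freedom, the difference between the lines in their response to the knockdown, and no replicates. The SE of a gene therefore rests largely on the spread that limma pools over all tested genes. The p-values measure no spread beyond these 4 libraries. A difference within a line compares 2 libraries, without replicates to check it and without a p-value, and an exact permutation test over the 2 pairs cannot give a p below 0.5. ZEB1, ZEB2 and SNAI2 passed the filter on the mean and were tested. SNAI1 and PRRX1 did not pass it. In bulk RNA a change in the share of cells that express a gene cannot be told apart from a change in RNA per cell.

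ZEB1 (ENSG00000148516.21, chr10:31607424-31818742, plus strand, GRCh37) encodes a zinc finger and homeodomain repressor of CDH1 and of the miR-200 genes. BM1 cells had 4.05 FPKM of ZEB1 with the control shRNA and 7.05 with the knockdown, and LM2 cells 7.48 and 11.9. The lowest value was the BM1 control and the highest the LM2 knockdown, and the BM1 knockdown library came close to the LM2 control. In each line ZEB1 was higher with the knockdown, by 0.67 for BM1 and 0.60 for LM2 on the log2(FPKM + 1) scale (1.74-fold and 1.59-fold in FPKM). Over both lines the difference was 0.64 ± 0.25 (SE), which did not pass the limma test (unadjusted p = 0.0324, adjusted p = 0.163). LM2 exceeded BM1 by 0.75 in the controls and by 0.68 in the knockdown libraries, and this difference of 0.71 ± 0.25 did not pass either (limma adjusted p = 0.142).

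ZEB1 shares 1953 bases with ZEB1-AS1 on the opposite strand and 261 bases with the pseudogene SPTLC1P1 on its own strand. ZEB1-AS1 measured 2.18 (control) and 2.22 FPKM (knockdown) in BM1 cells, 1.61 and 1.16 in LM2 cells. It was therefore lowest in the library where ZEB1 was highest. SPTLC1P1 was at 0.0692 to 0.231 FPKM. The kit keeps strand, per the labels, but no source used here says if counting used it.

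ZEB2 (ENSG00000169554.16, chr2:145141648-145282150, minus strand, GRCh37), the paralog of ZEB1, separated the lines most among the tested factors. BM1 cells had 0.961 FPKM of ZEB2 with the control shRNA and 1.95 with the knockdown, and LM2 cells 4.14 and 5.29. Both LM2 libraries were above both BM1 libraries. LM2 exceeded BM1 by 1.39 in the controls and 1.09 in the knockdown libraries. The difference between lines was 1.24 ± 0.26 and passed the limma test (adjusted p = 0.0342). ZEB2 was the only 1 of the 3 tested factors called in the comparison of lines, where 4.35% of all tested genes were called in either direction and 2.31% were higher in LM2. The call did not hold under 8 of the 10 alternative settings, with adjusted p-values over all 10 from 0.0338 to 0.99973, and leaving out the control or the knockdown library of BM1 gave 0.488 and 0.244, and those of LM2 gave 0.886 and 0.99973, without a treatment term in the fit.

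With the knockdown ZEB2 was higher by 0.59 in BM1 and 0.29 in LM2 (2.03-fold and 1.28-fold in FPKM). The average of the log2(FPKM + 1) differences was 0.44 ± 0.26, which did not pass the test (limma adjusted p = 0.324). ZEB2 shares 3381 bases with ZEB2-AS1 on the opposite strand. ZEB2-AS1 was low, with 0.0242 (control) and 0.121 FPKM (knockdown) in BM1 cells and 0.243 and 0.466 in LM2 cells. These values stand in the same order as those of ZEB2.

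ZEB1 exceeded ZEB2 in every library. The ratio of ZEB1 to ZEB2 in FPKM was 4.21 (control) and 3.61 (knockdown) for BM1 cells and 1.81 and 2.25 for LM2 cells. The ratio was lower in both LM2 libraries than in both BM1 libraries, and within each line the control and knockdown libraries lay closer to each other than to the other line.

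SNAI2 (ENSG00000019549.8, chr8:49830249-49834299, minus strand, GRCh37), which encodes Slug, was the most abundant of the 5 factors in both control libraries. BM1 cells had 6.71 FPKM of SNAI2 with the control shRNA and 5.49 with the knockdown, and LM2 cells 16.8 and 9.07. The LM2 control stood above the other 3 libraries. SNAI2 was lower with the knockdown in each line, by 0.25 in BM1 and 0.83 in LM2. The average difference was -0.54 ± 0.27 and did not pass the test (limma adjusted p = 0.258). LM2 exceeded BM1 by 1.21 in the controls and 0.63 in the knockdown libraries, for a line difference of 0.92 ± 0.27 that did not pass the test (limma adjusted p = 0.0922). SNAI2 overlaps no other listed gene.

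The order of ZEB1 and SNAI2 differed between treatments. The ratio of ZEB1 to SNAI2 went from 0.604 (control) to 1.28 (knockdown) for BM1 cells and from 0.444 to 1.31 for LM2 cells. SNAI2 was above ZEB1 in both controls and below it in both knockdown libraries. The ratio was 2.13-fold higher with the knockdown in BM1 and 2.95-fold higher in LM2. A ratio taken within a library is not moved by how libraries are scaled to each other. This pair was chosen after its values were seen, and the ratio was not tested.

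SNAI1 (ENSG00000124216.3, chr20:48599536-48605423, plus strand, GRCh37), which encodes Snail, was low. BM1 cells had 0.303 FPKM of SNAI1 with the control shRNA and 0.312 with the knockdown, and LM2 cells 0.940 and 1.61. These levels correspond to about 16, 12, 66 and 74 fragments, with 95% Poisson intervals of 0.173 to 0.492, 0.161 to 0.545, 0.729 to 1.20 and 1.26 to 2.02 FPKM, which cover counting error only. The LM2 intervals lay above both BM1 intervals, the 2 BM1 intervals overlapped and the 2 LM2 intervals did not. In FPKM, LM2 was 3.11-fold above BM1 in the controls and 5.15-fold in the knockdown libraries. On the log2(FPKM + 1) scale the knockdown difference was 0.01 in BM1 and 0.43 in LM2, and the line difference was 0.57 in the controls and 0.99 in the knockdown libraries. In a limma fit without the filter, where 0 of 20329 genes were called in either comparison, SNAI1 gave adjusted p-values of 0.227 for the line and 0.580 for the knockdown.

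SNAI2 exceeded SNAI1 in every library, 22.2-fold (control) and 17.6-fold (knockdown) for BM1 cells, 17.9-fold and 5.64-fold for LM2 cells. The last value stood apart from the other 3. In that library SNAI2 was lower and SNAI1 higher than in the LM2 control.

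PRRX1 (ENSG00000116132.11, chr1:170631869-170708560, plus strand, GRCh37) was the lowest of the 5 factors in every library. BM1 cells had 0.102 FPKM of PRRX1 with the control shRNA and 0.0822 with the knockdown, and LM2 cells 0.872 and 0.147. The LM2 control library alone stood high, and the other 3 lay together. The LM2 knockdown library was 5.93-fold below its control in FPKM, or 0.71 lower on the log2(FPKM + 1) scale, against 0.03 lower in BM1. With the longest annotated transcript as the length, these levels correspond to at most about 13.6, 8.04, 155 and 17.2 fragments. The high LM2 control value is a single library, and the difference between the lines' responses was not tested. In the limma fit without the filter PRRX1 had adjusted p-values of 0.452 for the line and 0.485 for the knockdown. SNAI1 and PRRX1 overlap no other listed gene.

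**Figure D2:**
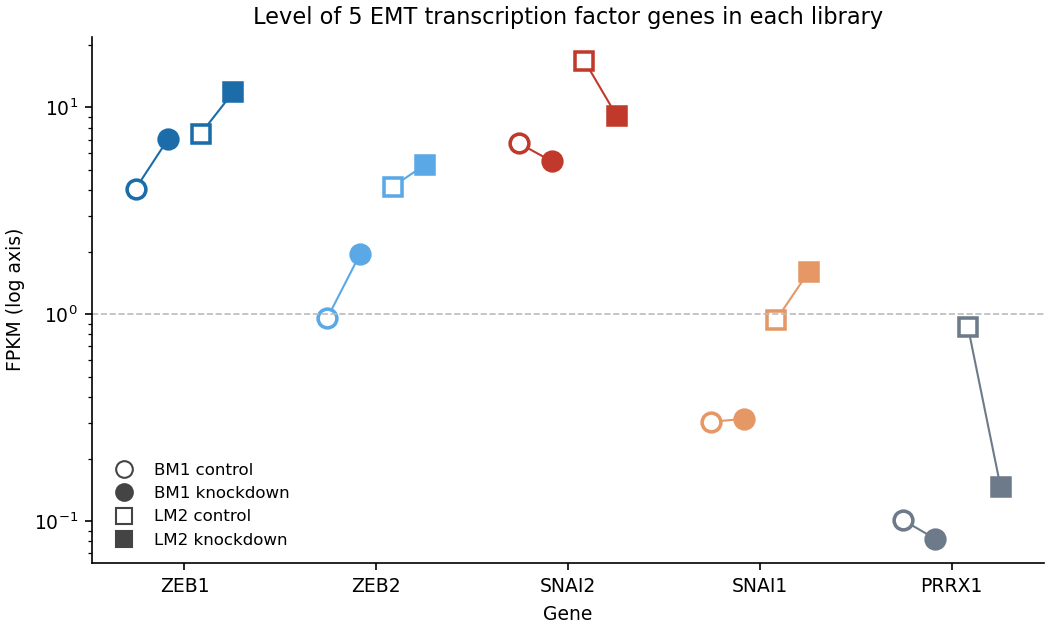
FPKM (log axis) of ZEB1, ZEB2, SNAI2, SNAI1 and PRRX1 in each of the 4 libraries; circles are BM1, squares LM2, open symbols control and filled symbols knockdown, lines join the libraries of a line and the dashed line is 1 FPKM. ZEB1 and ZEB2 were higher with the knockdown in both lines, SNAI2 lower in both, and PRRX1 stood high in the LM2 control library alone.

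The 5 factors were then set side by side. In the knockdown comparison 0 of the 3 tested factors were called, where 5.47% of all tested genes were called. Only ZEB1 had an unadjusted limma p under 0.05. A rule of at least 2-fold was applied on the log2(FPKM + 1) scale. By it 0 of the 3 passed in BM1, where 16.3% of tested genes did, and 0 of the 3 in LM2, where 8.06% did. In FPKM alone ZEB2 was 2.03-fold higher with the knockdown in BM1. ZEB1 and ZEB2 were higher and SNAI2 lower with the knockdown in both lines. Such a shared direction was common, as 33.0% of all tested genes were higher and 36.2% lower in both. At 1.5-fold, ZEB1 and ZEB2 passed in BM1, where 37.8% of tested genes did, and ZEB1 and SNAI2 in LM2, where 24.5% did.

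All 5 factors with a row had higher FPKM in LM2 than in BM1 in both treatments. SNAI1 and PRRX1 lay below the filter, so the shares of tested genes given here apply only to the 3 tested factors. For PRRX1 the knockdown libraries held at most about 8.04 (BM1) and 17.2 fragments (LM2). Among all tested genes 32.0% were higher in LM2 in both, and 12.7% were also higher with the knockdown in both lines, as ZEB1 and ZEB2 were. ZEB2 and SNAI2 differed at least 2-fold between the control libraries, 2 of the 3 tested factors, against 12.2% of tested genes. ZEB2 alone did so between the knockdown libraries, against 9.04%. The comparisons of the control and of the knockdown libraries share no library, but both set the same pair of lines against each other.

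**Figure D3:**
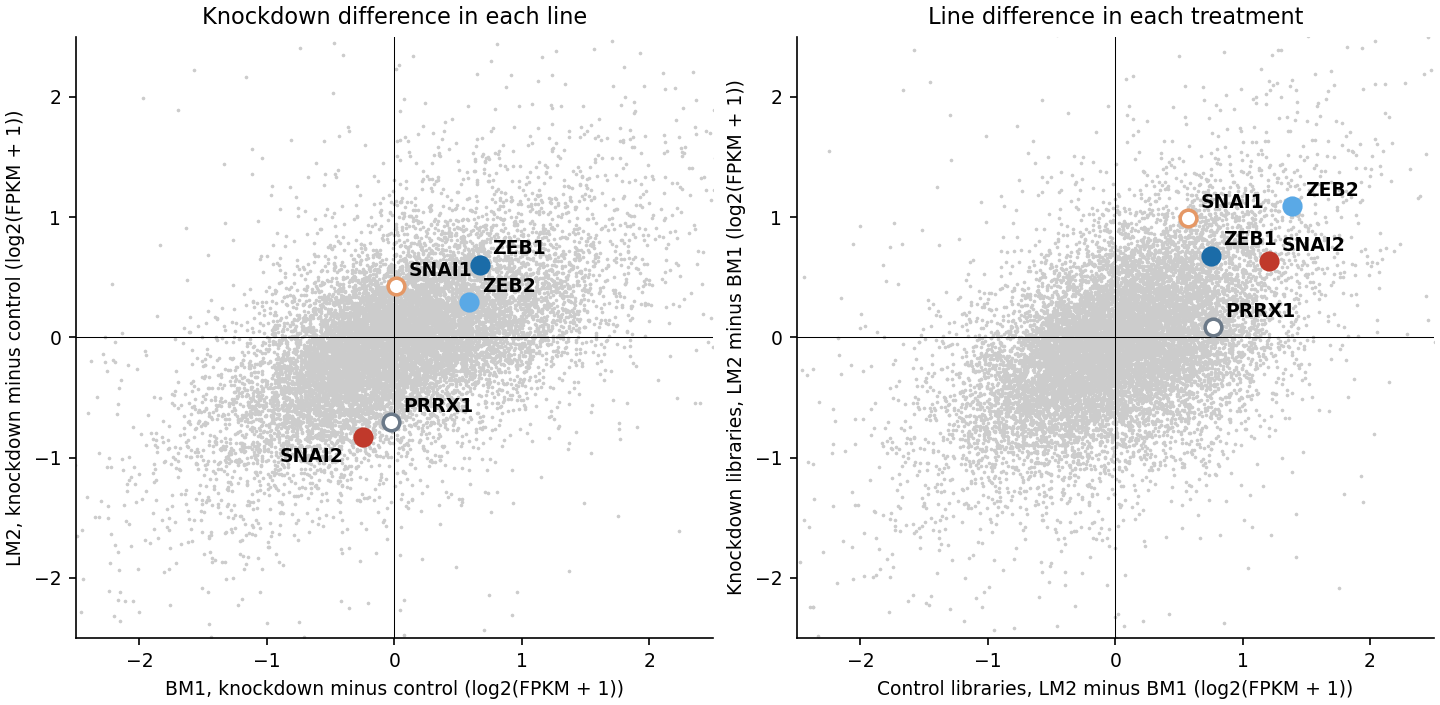
Differences on the log2(FPKM + 1) scale for 13928 tested genes (grey; 106 and 155 genes lie outside the axes of the left and right panels) and for the factors (filled, tested; open, below the filter). Left, knockdown minus control in BM1 (horizontal) and LM2 (vertical), with ZEB1 at 0.67 and 0.60 and SNAI2 at -0.25 and -0.83. Right, LM2 minus BM1 in control (horizontal) and knockdown libraries (vertical), where all 5 factors lie above 0 on both axes.

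The genes whose profile over the 4 libraries came closest to each tested factor were found by the largest difference between centred log2(FPKM + 1) values. For ZEB1 these were CDC42BPA, a kinase that acts below CDC42 (0.04), and DOT1L, a histone H3 methyltransferase (0.05), and 19 genes lay within 0.1. CDC42BPA measured 9.16 (control) and 15.5 FPKM (knockdown) for BM1 cells and 16.9 and 25.7 for LM2 cells. For ZEB2 they were PLIN3, a lipid droplet protein (0.07), and ZNF189 (0.09), and 3 genes lay within 0.1. For SNAI2 they were MESP1, a bHLH transcription factor (0.07), and RP11-496N12.6 (0.09), again with 3 genes within 0.1. MESP1 measured 0.753 (control) and 0.498 FPKM (knockdown) for BM1 cells and 3.07 and 1.15 for LM2 cells. RP11-496N12.6 was at 0.384 to 2.52 FPKM. Both lay below SNAI2 in every library, and the log2(FPKM + 1) scale understates the change of such low genes. With 4 libraries such a likeness is a description only.

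The factors act with other proteins, and 6 lists of such genes and of targets were counted. The lists were written from general knowledge of the pathway, but with earlier results of these data known. Their counts beside the shares of all tested genes are therefore a description and no test of a list. Across all tested genes the median difference was -0.01 for the knockdown and -0.01 for the line. Of all tested genes 2.71% were called higher and 2.76% lower with the knockdown, and 2.31% were called higher and 2.04% lower in LM2. The knockdown calls numbered 762. They numbered 613 and 27 with 0.5 and 0.1 added to FPKM in place of 1, and 707 with size factors. With no filter, after quantile normalization or without pairing by line they numbered 0. The line calls numbered 606, and 0 to 552 under the alternatives. Calls within the lists below carry the same limit.

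Dimer partners and inhibitors of the bHLH factors such as TWIST1 gave 3 genes called higher and 0 called lower with the knockdown among the 6 tested, with a median of 1.82. The 3 were ID3, ID1 and ID2, which encode proteins without a DNA-binding domain that capture bHLH partners. In BM1 cells ID3 rose from 2.39 to 108 FPKM, and in LM2 cells from 12.9 to 61.6 (3.59 ± 0.54, limma adjusted p = 0.0129). In BM1 cells ID1 rose from 9.37 to 162 FPKM, and in LM2 cells from 34.97 to 64.8 (2.42 ± 0.58, adjusted p = 0.0488). The corresponding values of ID2 were 0.0753 to 5.16 and 0.592 to 3.47 FPKM (2.005 ± 0.31, adjusted p = 0.0136). TCF3, which encodes the E proteins E12 and E47, was at 14.3 and 13.2 FPKM in BM1 and 20.1 and 16.8 in LM2, and was not called. The other tested genes were ID4 (2.96 in BM1 and 0.31 in LM2) and TCF12 (0.72 and -0.48), and neither was called. The median therefore mixes the ID inhibitors with the partners TCF3 and TCF12. Between the lines 0 of the 6 were called (median 0.30), and the largest differences were in ID4 (-1.31), ID3 (0.62) and TCF3 (0.39).

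Of 16 tested factors related to the 5 by family or by role, 2 were called higher and 1 lower with the knockdown, with a median of -0.03. KLF4, which maintains epithelial identity, rose from 6.93 to 20.9 FPKM for BM1 and from 6.18 to 23.1 for LM2 (1.60 ± 0.26, limma adjusted p = 0.0150). ELF3, an epithelial ETS factor, rose from 0.179 to 1.47 FPKM and from 0.401 to 2.64 FPKM (1.22 ± 0.26, adjusted p = 0.0338), and it overlaps RP11-465N4.4 on the opposite strand. Between the lines 0 were called higher and 4 lower in LM2, with a median of 0.09. The largest were FOXQ1 (-2.65), FOXA2 (-2.03) and EHF (-1.24), of which FOXA2 and EHF are epithelial factors, and all 3 were lower in LM2 in both treatments. With the knockdown FOXA2 differed by -0.78 in BM1 and -0.73 in LM2, and EHF by -0.15 and -0.03, and neither was called. ELF3 and KLF4, the epithelial factors named first, differed by 0.40 and -0.004 between the lines and were not called. The 5 factors themselves were higher in LM2 in both treatments.

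Of 25 tested cofactors of the ZEB and SNAIL proteins, 0 were called with the knockdown (median -0.36). The largest differences were in CTBP2 (-1.13), a corepressor bound by the ZEB proteins, DNMT3A (-1.03), a DNA methyltransferase, and LOXL3 (-1.01), with limma adjusted p-values of 0.0581, 0.0525 and 0.0551. CTBP2 measured 29.8 (control) and 9.57 FPKM (knockdown) for BM1 cells and 15.6 and 9.12 for LM2 cells. CTBP2 and LOXL3 overlap genes on the opposite strand. Between the lines 1 was called, SUV39H1, a histone H3 methyltransferase (1.67 ± 0.25, adjusted p = 0.00983), which overlaps AF196970.3 on the opposite strand. LOXL2 (0.80) and AJUBA (-0.76) followed and were not called.

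Snail protein is short-lived, and 22 tested genes of its degradation and of the kinases that act on these factors gave 0 calls with the knockdown (median 0.21) and 0 between the lines (median 0.13). The largest knockdown differences were in MDM2 (1.21), USP9X (1.16) and COPS2 (1.15), with limma adjusted p-values of 0.0683, 0.0508 and 0.0524. MDM2 and COPS2 overlap genes on the opposite strand, and MDM2 and USP9X overlap genes on the same strand. The largest line differences were in SKP2 (1.101), MDM2 (0.99) and PAK1 (0.87).

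Epithelial genes that the factors are known to repress were called higher with the knockdown in 9 of 24 tested cases and lower in 0, with a median of 0.71. Among them were LLGL2, KRT7, CDH1, CGN, KRT8, CLDN1, MUC1 and PKP2, and the last 6 of them are named after their values were seen. Among the 15 tested genes not called, 2 were lower in both lines, CLDN7 (-1.35 in BM1 and -0.53 in LM2) and SPINT2 (-0.87 and -0.23). CLDN4 (-1.84 and 0.77), KRT19 (-0.93 and 0.29) and AP1M2 (-0.06 and 0.53) were lower in BM1 and higher in LM2. KRT8 overlaps KRT18 on the opposite strand and PKP2 overlaps RP11-8P13.5 on its own. LLGL2, a cell polarity gene, rose from 2.39 to 20.1 FPKM for BM1 and from 2.58 to 10.4 for LM2 (2.15 ± 0.30, limma adjusted p = 0.0112). KRT7, a keratin gene that overlaps KRT86 on the same strand and RP3-416H24.1 and KRT87P on the opposite strand, rose by 1.81 ± 0.34 (adjusted p = 0.0233). CDH1, the target for which the ZEB and SNAIL factors are best known, had 0.489 (control) and 4.08 FPKM (knockdown) for BM1 cells and 0.170 and 2.30 for LM2 cells. In the same libraries ZEB1 and ZEB2 were higher and SNAI2 lower than in the controls. Between the lines 1 epithelial gene was called higher in LM2 (KRT7, 1.94) and 1 lower (KRT19, -2.81), with a median of -0.33. CLDN4 (-2.05) was not called.

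Mesenchymal genes divided with the knockdown, with 2 called higher and 2 lower of 24 tested (median 0.15). COL1A1, a fibrillar collagen gene, rose by 1.67 ± 0.28 (limma adjusted p = 0.0170), and CDH2, which encodes N-cadherin, rose by 1.39 ± 0.26 (adjusted p = 0.0226). MMP14, a membrane-bound metalloprotease gene, fell by 2.15 (adjusted p = 0.00652) and COL6A2 fell by 1.35 (adjusted p = 0.0446), the latter named after its value was seen. Between the lines 12 were called higher in LM2 and 1 lower, with a median of 1.12. The largest differences were in SPARC (7.23), a matrix glycoprotein gene, MMP2 (3.03), a gelatinase gene, and COL1A1 (3.001). CDH11, named after its value was seen, was the gene called lower (-2.53), and it overlaps RP11-229O3.1 on the same strand. COL1A1 also marks fibroblasts, and was at 1.94 and 11.1 FPKM in the BM1 and 29.2 and 74.2 in the LM2 control and knockdown libraries.

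**Figure D4:**
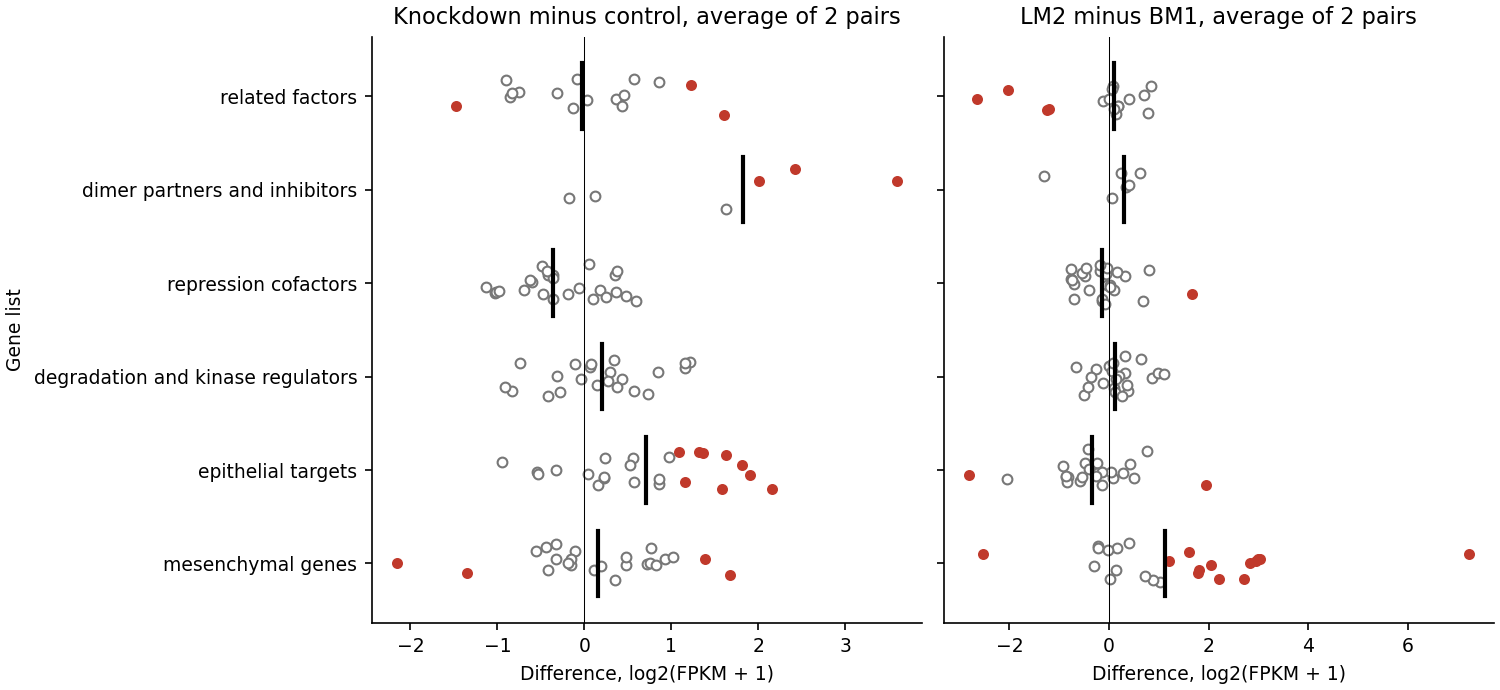
Limma differences on the log2(FPKM + 1) scale for the tested genes of 6 lists, knockdown minus control (left) and LM2 minus BM1 (right); each circle is a gene, red where the adjusted p was under 0.05, and black bars are list medians. In the main fit epithelial targets had 9 genes called higher and 0 lower with the knockdown, and mesenchymal genes 12 called higher in LM2.

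The E-box that the ZEB and SNAIL zinc fingers bind best reads CAGGTG, or CACCTG on the other strand. Both spellings were searched in RefSeq promoter windows of 300 bases, from 250 before to 50 after an annotated start (GRCh38.p14), and either was present in 20.6% of 35116 windows. Among the epithelial targets 15 of 20 genes with a window held it in at least 1 window, and 17 of their 27 windows did (63.0%). Of the 9 genes called higher with the knockdown, 4 had a window (CGN, MUC1, KRT8 and CLDN1) and 1 of them held the letters, MUC1. CDH1 was called but had no window, so it was not searched. Of the tested genes not called, 9 had a window and 8 held them. Shown here are MUC1 and, for comparison, 3 junction or protease inhibitor genes that were not called, with the E-box letters in capitals. Each was chosen after its values were seen.

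MUC1, chr1:155192982-155193007, minus strand: ggggttttgtCACCTGtCACCTGctc
DSP, chr6:7541483-7541508, plus strand: gcggcgggcgCAGGTGgggaggggcg
OCLN, chr5:69492504-69492529, plus strand: atccgagtttCAGGTGaattggtcac
SPINT1, chr15:40844441-40844466, plus strand: ccgggctgatCAGGTGtgtctcctcc

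MUC1, a membrane mucin gene, rose from 0.207 to 1.99 FPKM for BM1 and from 0.893 to 2.79 for LM2 (limma adjusted p = 0.0394). DSP, which encodes desmoplakin, was at 10.1 (control) and 17.4 FPKM (knockdown) for BM1 and at 16.02 and 20.3 for LM2. OCLN, which encodes occludin, was at 6.37 and 6.75 FPKM in BM1 and 2.46 and 3.54 FPKM in LM2. SPINT1 was at 1.06 and 3.40 FPKM in BM1 and 1.53 and 1.56 FPKM in LM2. Among the factors, 2 of 7 ZEB1 windows held the letters, and the windows of ZEB2 and PRRX1 did not. SNAI1 and SNAI2 had no window and were not searched. A match or its absence in these windows says nothing of binding in these cells.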

How the data were processed

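The authors deposited 1 table of FPKM values for 4 stranded, paired-end libraries of polyadenylated RNA, per the labels' protocols. The submitters' processing notes name STAR 2.5.3a, Cuffdiff 2.2.1 and GRCh37. No source used here gives the annotation release. Of 20369 rows, 40 with 3 repeated gene IDs were left out. The 13928 genes whose mean reached 1 FPKM were analysed as log2(FPKM + 1) with limma 3.58.1 in R 4.3.3, with terms for line and treatment, which pairs libraries by line. The fit was also run on simulated data with the same noise level for every gene, which does not test it where genes differ in spread. Fragments were estimated from whole-number steps in the low values of 1623 genes. Transcript lengths and UTRs came from GENCODE 29 by gene ID, and microRNAs and promoters from RefSeq. The factors and gene lists were chosen with earlier results of these data known. All 10 factors were to be described, with the 3 largest differences of each list in each comparison and the 2 genes most like each tested factor. Some genes that this rule names are not reported here. Alternatives were pseudocounts of 0.1 and 0.5, no filter, 2 other normalizations, no pairing, each library left out, and a 1.5-fold rule.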

Additional observations from a re-analysis of the deposited data

How the results depend on the processing

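ZEB1 stayed higher with the knockdown, and ZEB1, ZEB2 and SNAI2 stayed higher in LM2, under all 10 alternatives of the limma fit. Not all of the 10 could have reversed a direction. Without the filter and in the unpaired fit the differences equal those of the main fit by construction. Another pseudocount cannot reverse a direction that both pairs of libraries share. In the knockdown comparison 0 factors were called under all 10. The call of ZEB2 between the lines was kept with a pseudocount of 0.5 (adjusted p = 0.0338) and with size factors (0.0343). The number of called factors was 0 with a pseudocount of 0.1 (adjusted p of ZEB2 0.0808), with no filter (0.213), after quantile normalization (0.0868), in the unpaired fit (0.415) and in each fit that left out a library (0 to 0, with differences of ZEB2 from 0.947 to 1.54). Leaving out a library also removes the pairing, so an arm then holds the lines in unequal numbers. In those fits the knockdown difference of ZEB2 ran from -0.255 to 1.14 and turned lower when the BM1 control (-0.26) or the LM2 knockdown library (-0.11) was left out. That of SNAI2 ran from -1.14 to 0.0686 and turned higher without the LM2 control library (0.07). A 1.5-fold rule raised the number of factors past it from 0 to 2 in BM1, from 0 to 2 in LM2 and from 1 to 3 between the knockdown libraries, where 37.8%, 24.5% and 27.7% of all tested genes passed. Over all genes the knockdown calls numbered 762, but 27 with a pseudocount of 0.1 and 0 with no filter, after quantile normalization, in the unpaired fit or without any library (860 to 3735 genes at an unadjusted limma p under 0.05), so the calls in the gene lists carry the same limit. The line calls numbered 606, and 0 to 552 under the alternatives. The low counts of SNAI1 and PRRX1 limit what depth can show for them.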
